A study of Homo sapiens with 9 samples.

Results

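Interferon-stimulated genes are the antiviral and immune genes that cells switch on when interferon reaches them. The set described here holds 39 of them, found by exact gene symbol among the 23621 gene rows of the deposited table, and all 39 have a row. The rule that lists them names genes and uses no measured value. Members and the pathway lists below were still chosen with earlier results of these data known, so their counts are no blind comparison. Of the 39, 38 had a mean of at least 1 FPKM (fragments per kilobase of transcript, scaled to library size, so a level per transcript length) over the 9 libraries and were tested along with 12301 genes in all. The other one, OASL, is given by its levels only.

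The libraries came from 1 cell line, MOLT4, grown from a human T-cell leukemia (T-ALL) and long established in culture. Cells had 6 h of 0.1% DMSO (the vehicle), MI-389 or sunitinib, with 3 libraries in each group. Sunitinib is a kinase inhibitor, and MI-389 is a phthalimide conjugate, a type of molecule that binds the ubiquitin ligase subunit cereblon. The series title names GSPT1, which ends translation at stop codons, as a protein that such degraders also hit. Labels of the treated libraries conflict: those titled MI-389 have a source field naming sunitinib at 1 µM, and those titled sunitinib have one naming MI-389 at 0.1 µM. Titles, column names and the barcode list of the protocol share the first naming, so groups are called by their titles. Should the source field hold instead, the names of both compounds are to be exchanged throughout. Doses were not matched, so any difference between the treated groups is one of compound and dose together. Only the transcripts of GSPT1 and CRBN were looked at beside these labels, and they do not settle them. The GSPT1 messenger RNA stood at 63.2 ± 3.95 FPKM (SD, n = 3) in DMSO, 65.8 ± 1.91 in the libraries titled MI-389 and 50.7 ± 2.66 under the title sunitinib. CRBN, which encodes cereblon, stood at 38.1 ± 1.33, 53.6 ± 3.73 and 37.96 ± 0.353. By the limma test described below, GSPT1 was lower than DMSO under the title sunitinib (log2 difference −0.31, adjusted p = 0.00969). CRBN was higher than DMSO under the title MI-389 (0.48, adjusted p = 9.37e-05). The labels name no interferon treatment and do not say whether replicates were separate cultures. The p-values thus cover only the variation among these libraries, and it may be technical.

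Type I interferons bind the receptor IFNAR1/IFNAR2, whose kinases JAK1 and TYK2 phosphorylate STAT proteins. STAT2 and IRF9 are subunits of the complex ISGF3, which binds the interferon-stimulated response element (ISRE) in promoters, a pair of GAAA blocks set apart by a spacer of 2 bases. Many of the genes keep a basal level without interferon, held by ISGF3-like complexes and by interferon regulatory factors such as IRF1. Their products sense viral RNA, degrade it, block its translation or entry, or tag proteins with the ubiquitin-like modifier ISG15.

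MOLT4 cells carried most of these messenger RNAs in DMSO at levels like those of other genes. The members' median level in DMSO was 28.1 FPKM against 24.5 FPKM over all tested genes, and 21 members lay above the latter. In DMSO 5 members had a mean of 100 FPKM or more, 26 lay from 10 to under 100, 7 from 1 to under 10, and 1 under 1 FPKM. UBE2L6, the enzyme that hands ISG15 to its ligases, was the highest at 340.4 ± 39.1 FPKM (SD, n = 3), above 95.4% of tested genes, followed by the membrane protein IFITM1 at 298 ± 20.5, and their DMSO libraries overlap. BST2, IFITM2 and IFI6 were the next at 185 ± 25.8, 135 ± 17.5 and 126 ± 16.9, and the spreads of the last 2 overlap. At the bottom stood IFI27 at 1.51 ± 0.449, IFI44L at 1.46 ± 0.348 and OASL at 0.244 ± 0.0196 FPKM. The summed level of all 39 was 1892 to 2230 FPKM in the DMSO libraries, 1984 to 2047 in those titled sunitinib and 1581 to 1672 in those titled MI-389, which lay below every other library. DMSO replicate 1 held the lowest sum of its group. In bulk RNA, fewer cells with a transcript and less of it per cell cannot be told apart.

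**Figure D1:**
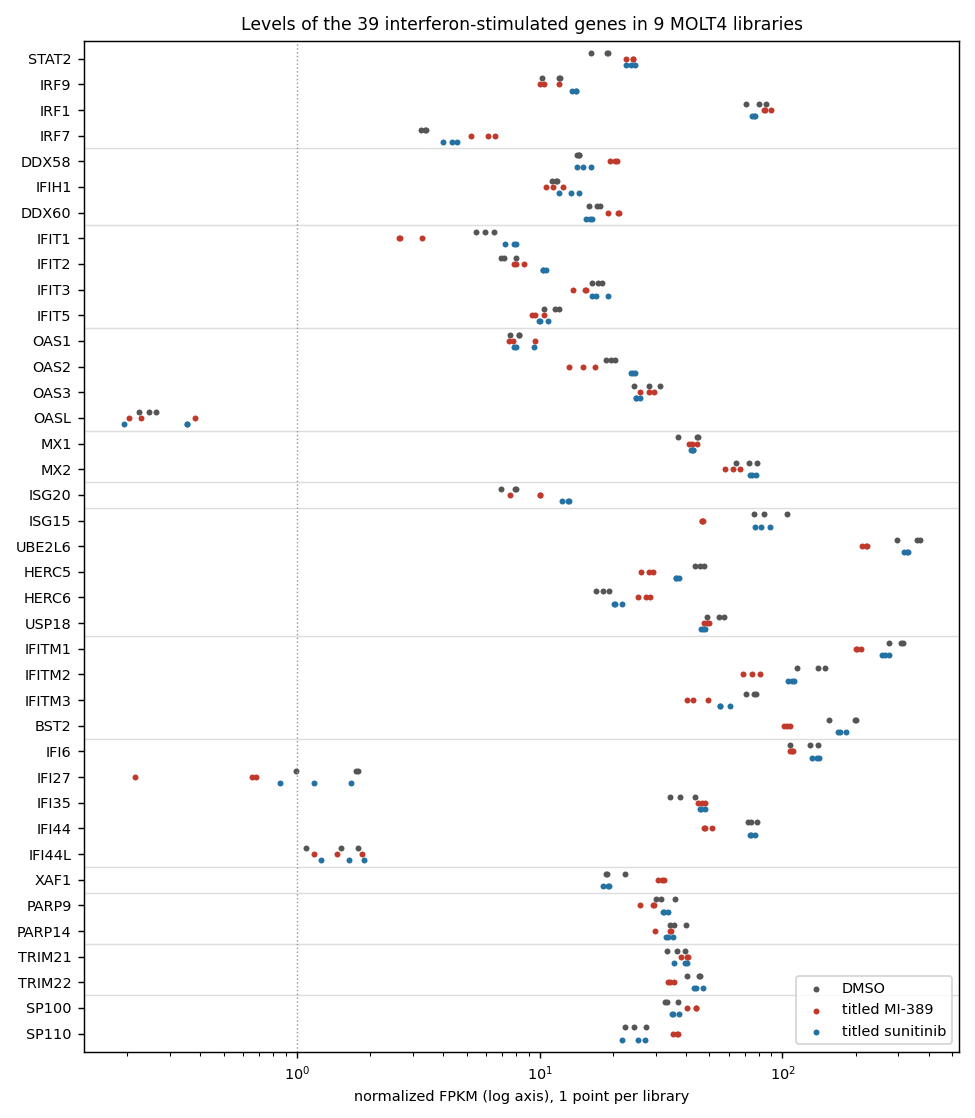
Level of each of the 39 genes in every library, in normalized FPKM on a log axis, with 1 point per library and colours for the groups as titled; grey lines separate roles and the dotted line marks 1 FPKM. UBE2L6 and IFITM1 stand at the top of the range, and OASL stands under 1 FPKM in all 9 libraries.

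The labelled T-cell origin was checked against markers. All 14 T-lineage markers (the CD3 chains, CD1 proteins and others) had a mean of at least 1 FPKM, with summed levels of 5885 to 7273 FPKM in DMSO, 5736 to 6077 in the libraries titled MI-389 and 6288 to 6568 under the title sunitinib. Markers of B cells (2 of 6), of myeloid and plasmacytoid cells (1 of 8) and of epithelial cells and fibroblasts (1 of 8) rarely reached 1 FPKM. Summed B-cell markers came to 11.8 to 12.9, 10.7 to 11.9 and 9.08 to 9.75 FPKM in DMSO and in the libraries titled MI-389 and sunitinib. The sums were 2.09 to 2.90, 2.34 to 2.76 and 2.22 to 2.34 FPKM for myeloid and plasmacytoid markers. For epithelial and fibroblast markers they were 2.44 to 2.73, 3.004 to 3.54 and 2.45 to 3.55 FPKM. Plasmacytoid dendritic cells are the main interferon makers of blood, and their part in the results below was not tested beyond these sums. Read totals are unknown from FPKM alone; steps between low values put the depth at 1.38 times DMSO for the libraries titled MI-389 (76 genes) and 1.33 times for those titled sunitinib (95 genes).

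Against DMSO, the members split in the libraries titled MI-389 and mostly did not pass the test in those titled sunitinib. By limma on log2(FPKM + 1) with Benjamini-Hochberg adjustment over all 12301 genes, 9 members were higher and 15 lower in the libraries titled MI-389, and 14 did not pass. That is 63.2% of the 38, where 56.7% of all tested genes passed (28.5% higher and 28.3% lower). The share called is thus near the background, with the lower calls above it and the higher calls close to it. The members' median log2 difference was −0.10 against 0.00 (−0.002) over all genes, and their median absolute difference 0.285 against 0.269. In the libraries titled sunitinib, 6 members were higher, 2 lower and 30 did not pass, 21.1% of the 38 against a background of 19.3% (2.37% higher and 16.9% lower). Here the split went the other way from that of all genes: the members' median log2 difference was 0.02 and that of all genes −0.10.

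The libraries of every called member did not overlap between the groups compared. Counting members whose libraries did not overlap, called or not, 9 were higher and 15 lower under the title MI-389 (over all tested genes 30.5% and 29.7%, together 60.2%), and 10 were higher and 5 lower under the title sunitinib (over all tested genes 5.89% and 29.3%, together 35.2%). The comparisons share the 3 DMSO libraries, so their values are set side by side and not correlated. STAT2 and IFI35 were higher in both, HERC5 and IFITM3 lower in both, and IFIT1 and OAS2 were lower in the libraries titled MI-389 but higher in those titled sunitinib. IFIT2 and ISG20 were higher in the libraries titled sunitinib alone by the test against DMSO. Another 7 members were higher and 11 lower by that test in the libraries titled MI-389 alone, and 12 passed in neither. Over all tested genes 56.7% passed under the title MI-389 and 19.3% under the title sunitinib. These joint classes were not counted over all genes, so their counts among members have no background beside them.

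The count for the title sunitinib is the less steady. It was 15 (7 higher, 8 lower) without DMSO replicate 1, 5 without DMSO replicate 2 or without either of the sunitinib replicates 1 and 2, and 4 without sunitinib replicate 3. With each library centred on its median it was 16 (14 higher, 2 lower), and over all genes the share of higher calls then moved from 12.3% to 40.5%. For the title MI-389 that share moved from 50.2% to 39.4% and the members' split to 9 higher and 19 lower. Calls over all tested genes moved too. For the title sunitinib they went from 2370 to 4244 without DMSO replicate 1 and 1572 without DMSO replicate 2. Without sunitinib replicates 1, 2 and 3 they were 1529, 929 and 995, and with median centring 3136. Median centring took those for the title MI-389 from 6979 to 8178.

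**Figure D2:**
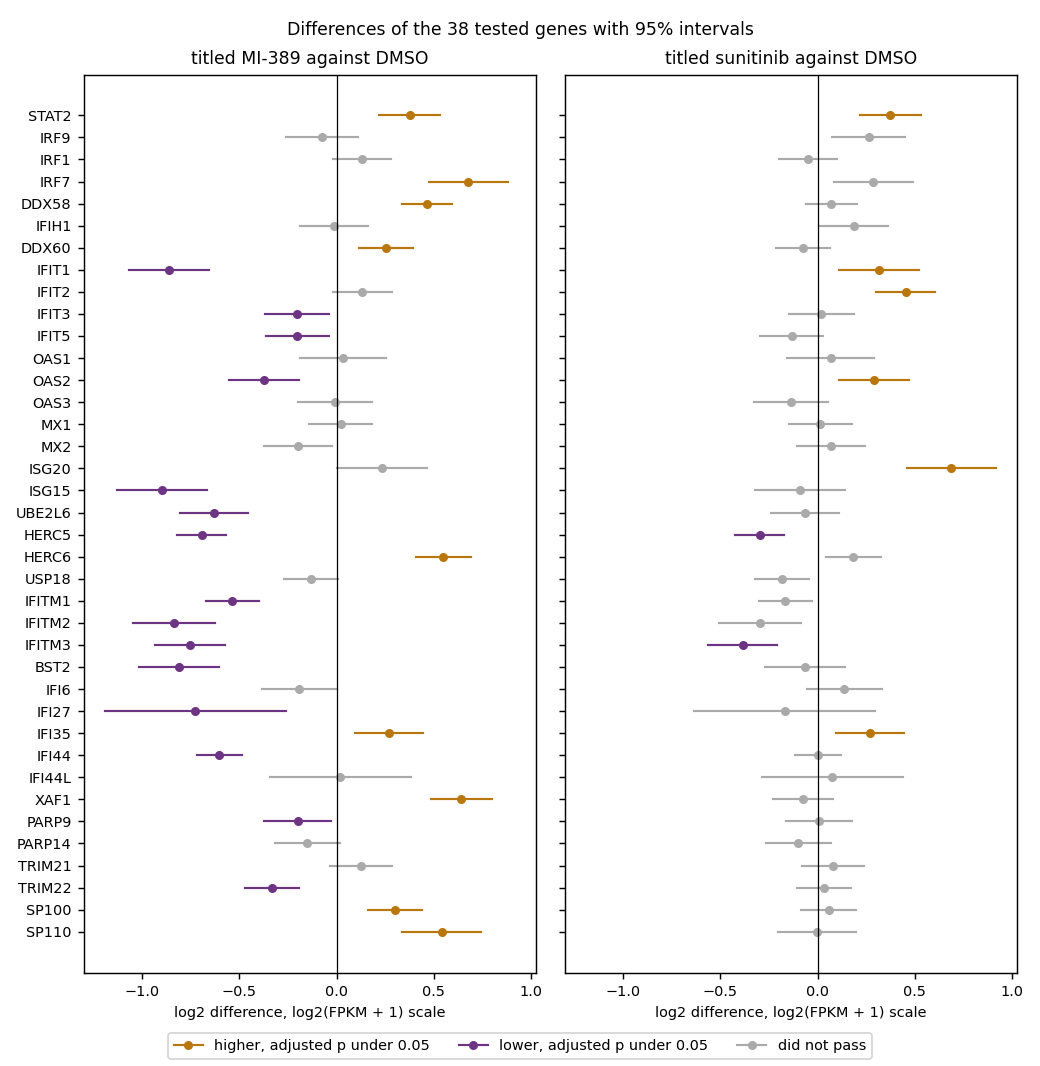
Log2 difference from DMSO of the 38 tested genes with its 95% interval, on the log2(FPKM + 1) scale, for the libraries titled MI-389 (left) and sunitinib (right), with colours for the call. On the left 9 genes are higher and 15 lower; on the right 6 are higher and 2 lower, and most intervals cross or approach 0.

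Most ligands were near the floor of the table. All 21 rows for type I, II and III interferons had means under 1 FPKM and were not tested, and 18 of them were under 0.2 FPKM in every library. The highest mean over all libraries, 0.407, was that of IFNB1, which encodes interferon beta and is named here after its values were seen. IFNB1 stood at 0.109, 0.241 and 0.249 FPKM in DMSO, at 0.855, 0.203 and 1.27 in the libraries titled MI-389 and at 0.437, 0.0997 and 0.206 in those titled sunitinib. Under the title MI-389 2 of the 3 libraries lay above every other library and 1 lay within the DMSO range, and with a mean under the filter it was not tested. The lowest value of any gene row is 0.0924 FPKM. Receptors and kinases, in contrast, were present. IFNAR1 stood at 35.2 ± 3.05 FPKM in DMSO, 36.3 ± 2.03 under the title MI-389 and 34.4 ± 2.08 under the title sunitinib, IFNAR2 at 87.3 ± 6.98 FPKM in DMSO, 85.5 ± 3.72 under the title MI-389 and 75.6 ± 3.103 under the title sunitinib, and TYK2 at 56.1 ± 7.42 FPKM in DMSO, 53.9 ± 2.46 under the title MI-389 and 58.1 ± 2.297 under the title sunitinib, and none of the 3 passed the test against DMSO in either group.

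Of the 8 tested receptor and kinase genes, 3 were higher and 1 lower in the libraries titled MI-389 (all tested genes 28.5% and 28.3%). JAK1 was higher under that title, at 31.1 ± 1.43 against 26.6 ± 0.974 FPKM (log2 difference 0.22, adjusted p = 0.00885). The chains of the interferon gamma receptor parted: IFNGR2 fell 1.85-fold, from 32.97 ± 1.92 to 17.8 ± 0.848 FPKM (adjusted p = 3.65e-06), while IFNGR1 rose 1.5-fold, from 26.9 ± 0.708 to 40.4 ± 2.29 (adjusted p = 4.85e-05). JAK2, the kinase bound to IFNGR2, was higher at 7.91 ± 0.397 against 6.33 ± 0.817 FPKM (adjusted p = 0.0199), a call lost without DMSO replicate 2, without MI-389 replicate 1 or 2, and under median centring, quantile normalization and cyclic loess (up to 0.12). In the libraries titled sunitinib IL10RB, a chain of the type III interferon receptor, was higher (76.6 ± 3.42 against 64.1 ± 3.07 FPKM, adjusted p = 0.0179), and IFNGR2 was lower (28.5 ± 0.823 FPKM, adjusted p = 0.0401). The IL10RB call was lost without sunitinib replicate 1 or 2 (up to 0.0643). That of IFNGR2 was lost without DMSO replicate 1 or 3, without any sunitinib replicate and under the other scalings (up to 0.218).

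Among the transcription factors of the set, STAT2 was higher in both treated groups. STAT2 stood at 16.3, 18.96 and 19.2 FPKM in DMSO, at 24.3, 22.7 and 24.3 in the libraries titled MI-389 and at 23.9, 22.7 and 24.6 in those titled sunitinib. Every treated library lay above every DMSO library, and the mean of each treated group was 1.31 times that of DMSO (log2 differences 0.38 ± 0.07 (SE), adjusted p = 0.00132, and 0.37 ± 0.07 (SE), adjusted p = 0.00823). IRF7, the factor that amplifies type I interferon production, had the largest higher difference of the set in the libraries titled MI-389, on the log2(FPKM + 1) scale and by ratio of means. IRF7 stood at 3.24, 3.41 and 3.37 FPKM in DMSO, at 6.54, 5.22 and 6.12 in the libraries titled MI-389 and at 4.55, 4.37 and 3.99 in those titled sunitinib. Its libraries titled MI-389 were 1.78-fold above DMSO without overlap (log2 difference 0.68 ± 0.09 (SE), adjusted p = 0.000181); the sunitinib libraries also lay above DMSO, and that difference did not pass (0.29, adjusted p = 0.0526).

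IRF9, the DNA-binding subunit of ISGF3, had 11.5 ± 1.08 FPKM in DMSO, 10.8 ± 1.07 under the title MI-389 and 13.9 ± 0.303 under the title sunitinib, and did not pass against DMSO in either group (adjusted p = 0.465 and 0.0534). IRF1, a factor that binds the same element, had 78.8 ± 7.25 FPKM in DMSO, 86.1 ± 3.02 under the title MI-389 and 75.97 ± 1.34 under the title sunitinib, with no call against DMSO; an opposite-strand gene, C5orf56, overlaps it and the kit does not mark strand.

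To see what the promoters of these genes hold, RefSeq windows of 300 bases (250 before to 50 after the start) in GRCh38.p14 were searched on both strands for the ISRE core, written here as GAAA, any 2 bases, GAAA (on the other strand TTTC, any 2 bases, TTTC). Of the 39 members 31 matched an entry, with 41 windows. The ISRE core was found for 20 of the 31 (64.5%) and for 4.38% of the 27305 genes with a RefSeq window. It was found for 11 of the 12 matched members that were lower in the libraries titled MI-389, the exception being UBE2L6, for 1 of the 8 that were higher (DDX60), and for 8 of the 11 that did not pass. A second search, chosen after these windows had been read, used the same blocks 1 base apart, GAAA, any 1 base, GAAA or its reverse TTTC, any 1 base, TTTC, which occurs for 3.87% of all genes. It was found for 5 of the 8 higher members (DDX58, DDX60, IFI35, XAF1 and SP110), 2 of the 12 lower (IFIT3 and IFI44) and 4 of the 11 others. Matches of both kinds may overlap; 6 members held both and 6 neither. The gamma-activated element GAS, TTCNNNGAA (its own reverse), was found for 11 of the 31 and for 9.38% of all genes, in 3 of the 8 higher and 3 of the 12 lower members.

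Among tested genes outside the set, the ISRE core did not go with a direction: of 334 with it 29.3% were higher and 29.3% lower in the libraries titled MI-389, against 29.5% and 29.7% of the 8363 without it. For the 1-base spacing the shares were 31.2% higher and 32.9% lower of 298 genes, so neither spacing went with a direction there. Genes of the other interferon pathway lists that held the ISRE core were 3 higher and 18 lower of 33, and those without it 14 higher and 15 lower of 49. With the 1-base spacing, which went with higher calls among members, 4 of these genes were higher and 7 lower of 17, and without it 13 higher and 26 lower of 65. These are counts of letters in a window, not of bound sites, and IRF7, IFIT2, OAS2, OASL, MX2, USP18, IFITM2 and TRIM22 had no entry.

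**Figure D3:**
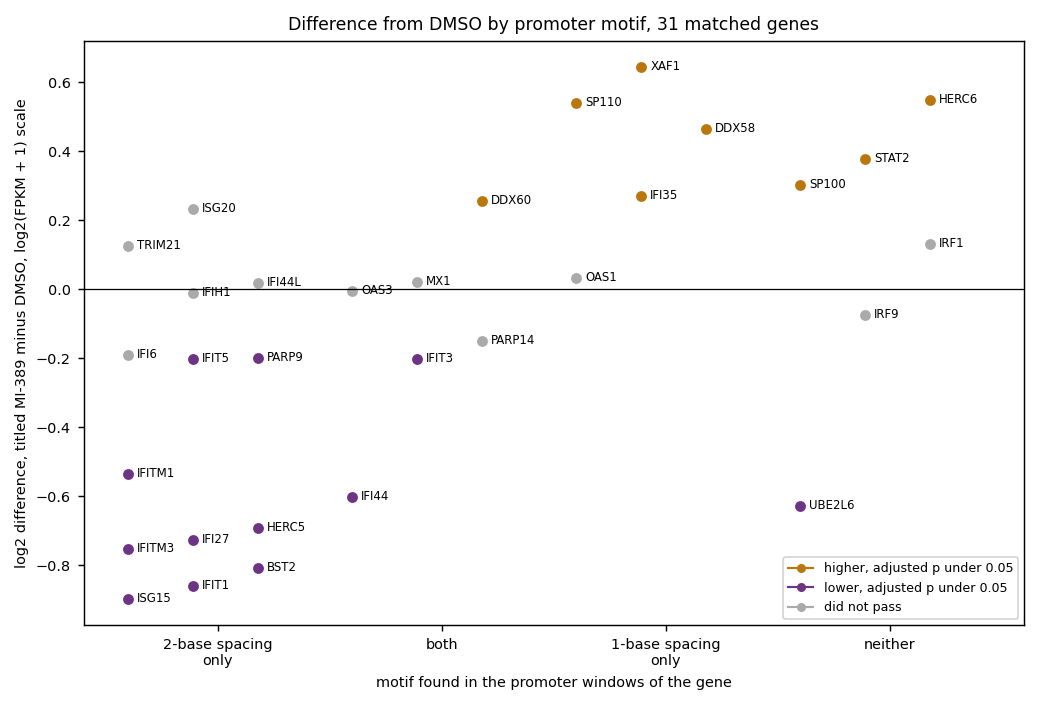
Log2 difference from DMSO under the title MI-389 (log2(FPKM + 1) scale) of the 31 members with a promoter entry, grouped by whether their windows hold the blocks 2 bases apart (the ISRE core), 1 base apart, both or neither; horizontal spread within a group has no meaning. Of 14 genes with the 2-base spacing alone 9 were lower and none higher, and of 5 with the 1-base spacing alone 4 were higher and none lower. The 1-base spacing was chosen after these windows had been read, so its split is no test.

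Of the 3 RNA sensors 2 were higher under the title MI-389, and none passed against DMSO under the title sunitinib. Over all tested genes 28.5% were higher under the title MI-389, and 36.9% of those with at least 2000 coding bases, as all 3 have. Under the title sunitinib 19.3% of all tested genes passed. DDX58, which encodes RIG-I, stood at 14.5, 14.2 and 14.4 FPKM in DMSO, at 20.7, 19.5 and 20.5 in the libraries titled MI-389 and at 16.2, 14.2 and 15.1 in those titled sunitinib. The libraries titled MI-389 all lay above the rest, 1.41-fold over DMSO (log2 difference 0.46 ± 0.06 (SE), adjusted p = 0.000114), while the sunitinib libraries overlapped DMSO. DDX60, a helicase that aids RIG-I, stood at 17.8, 15.9 and 17.2 FPKM in DMSO, at 20.9, 19.1 and 21.3 in the libraries titled MI-389 and at 16.1, 15.5 and 16.5 in those titled sunitinib. It was 1.21-fold above DMSO in the libraries titled MI-389 (log2 difference 0.26, adjusted p = 0.00569), a call lost under quantile normalization (adjusted p = 0.0518). IFIH1, which encodes the sensor MDA5, had 11.6 ± 0.266 FPKM in DMSO, 11.5 ± 0.913 under the title MI-389 and 13.4 ± 1.26 under the title sunitinib, and passed in no comparison. The DDX58 promoter is shown as an example of the 1-base spacing, with those letters in capitals, for the 250 bases before its start at chr9:32526197-32526446 on the minus strand.
DDX58: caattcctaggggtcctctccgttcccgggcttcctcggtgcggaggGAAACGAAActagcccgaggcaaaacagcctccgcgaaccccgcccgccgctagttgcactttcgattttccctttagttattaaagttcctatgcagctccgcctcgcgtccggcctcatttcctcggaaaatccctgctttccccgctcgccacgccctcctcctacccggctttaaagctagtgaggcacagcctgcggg

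IFIT proteins bind foreign RNA and hold back its translation, and their genes lie together on chromosome 10. IFIT1 stood at 6.501, 5.48 and 5.98 FPKM in DMSO, at 2.64, 2.66 and 3.26 in the libraries titled MI-389 and at 8.01, 7.22 and 7.86 in those titled sunitinib. The 3 groups did not overlap: the libraries titled MI-389 were 2.1-fold below DMSO (log2 difference −0.86 ± 0.09 (SE), adjusted p = 4.44e-05) and those titled sunitinib 1.29-fold above it (0.32 ± 0.09 (SE), adjusted p = 0.0398). The higher call was lost on leaving out any one of DMSO replicates 2 and 3 and sunitinib replicates 1 to 3, with an adjusted p of up to 0.122. IFIT2, which borders IFIT3, stood at 7.98, 7.11 and 6.94 FPKM in DMSO, at 8.603, 7.83 and 7.98 in the libraries titled MI-389 and at 10.6, 10.4 and 10.3 in those titled sunitinib. The sunitinib libraries lay 1.42-fold above DMSO (log2 difference 0.45 ± 0.07 (SE), adjusted p = 0.0036), and the libraries titled MI-389 overlapped DMSO.

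IFIT3, the partner that stabilizes IFIT1, had 17.3 ± 0.849 FPKM in DMSO, 14.9 ± 1.02 under the title MI-389 and 17.5 ± 1.43 under the title sunitinib, and IFIT5, which borders IFIT1, had 11.4 ± 0.857 FPKM in DMSO, 9.74 ± 0.579 under the title MI-389 and 10.3 ± 0.489 under the title sunitinib. Both were lower than DMSO in the libraries titled MI-389 (log2 differences −0.20, adjusted p = 0.0405, and −0.20, adjusted p = 0.0368). These small differences were not steady: the IFIT3 call was lost without DMSO replicate 2 or 3 or without any MI-389 replicate (up to adjusted p = 0.141), and the IFIT5 call without DMSO replicate 1 or 3 or MI-389 replicate 2 or 3 (up to 0.126). Neither passed in the libraries titled sunitinib. So 3 of the 4 IFIT genes were lower under the title MI-389, and IFIT1 and IFIT2 were higher under the title sunitinib. Over all tested genes 28.3% were lower under the title MI-389 and 2.37% higher under the title sunitinib. The IFIT1 promoter holds the ISRE core 2 times (capitals), shown for the 250 bases before the start at chr10:89392373-89392622 on the plus strand.
IFIT1: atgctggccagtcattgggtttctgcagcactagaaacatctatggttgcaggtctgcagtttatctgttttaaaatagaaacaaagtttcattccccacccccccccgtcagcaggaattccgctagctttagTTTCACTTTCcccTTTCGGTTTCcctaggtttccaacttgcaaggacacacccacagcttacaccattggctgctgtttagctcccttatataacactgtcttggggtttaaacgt

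OAS enzymes make the 2-5A signal that activates RNase L, and OAS1, OAS3 and OAS2 are neighbours on chromosome 12. OAS2 stood at 19.7, 18.8 and 20.5 FPKM in DMSO, at 15.01, 13.2 and 16.9 in the libraries titled MI-389 and at 24.8, 23.8 and 24.3 in those titled sunitinib. As with IFIT1, the 3 groups did not overlap: OAS2 was 1.31-fold below DMSO under the title MI-389 (log2 difference −0.37 ± 0.08 (SE), adjusted p = 0.00318) and 1.23-fold above it under the title sunitinib (0.29 ± 0.08 (SE), adjusted p = 0.0336). The higher call was lost without DMSO replicate 2 or 3 or any sunitinib replicate (up to adjusted p = 0.1). OAS1 had 8.001 ± 0.371 FPKM in DMSO, 8.25 ± 1.11 under the title MI-389 and 8.46 ± 0.924 under the title sunitinib, and OAS3 28.1 ± 3.46 FPKM in DMSO, 27.8 ± 1.83 under the title MI-389 and 25.3 ± 0.533 under the title sunitinib; neither passed in any comparison. OASL, whose product has no 2-5A activity, had 0.223, 0.262 and 0.247 FPKM in DMSO, 0.229, 0.203 and 0.379 under the title MI-389 and 0.352, 0.194 and 0.351 under the title sunitinib, close to the floor.

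The antiviral GTPases MX1 and MX2, neighbours on chromosome 21, did not pass against DMSO. MX1 had 42.2 ± 4.34 FPKM in DMSO, 42.8 ± 1.65 under the title MI-389 and 42.5 ± 0.597 under the title sunitinib, and its 95% interval for the log2 difference from DMSO was −0.14 to 0.18 under the title MI-389 and −0.15 to 0.18 under the title sunitinib. MX2 had 71.9 ± 7.07 FPKM in DMSO, 62.6 ± 4.51 under the title MI-389 and 75.2 ± 2.14 under the title sunitinib (adjusted p = 0.0555 for the title MI-389). ISG20, an RNA exonuclease, stood at 8.01, 7.94 and 6.93 FPKM in DMSO, at 10.04, 9.99 and 7.55 in the libraries titled MI-389 and at 13.1, 13.2 and 12.4 in those titled sunitinib. On the log2(FPKM + 1) scale and by ratio of means it had the largest higher difference of the set in the libraries titled sunitinib, 1.69-fold without overlap (log2 difference 0.69 ± 0.10 (SE), adjusted p = 0.0036), while under the title MI-389 1 library lay within the DMSO range and the difference did not pass (adjusted p = 0.0782).

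The ISG15 pathway was lower at 3 of its steps in the libraries titled MI-389. Of its 5 genes in the set 3 were lower and 1 higher, against 28.3% and 28.5% of all tested genes. ISG15 itself stood at 84.2, 76.1 and 105 FPKM in DMSO, at 46.5, 46.9 and 46.4 in the libraries titled MI-389 and at 88.8, 77.3 and 81.4 in those titled sunitinib. All 3 libraries titled MI-389 lay below every other library, 1.9-fold under DMSO (log2 difference −0.90 ± 0.10 (SE), adjusted p = 6.87e-05). On the log2(FPKM + 1) scale no member differed more on the lower side, while by ratio of means IFI27 (2.93-fold) and IFIT1 (2.1-fold) did. IFI27 passed the filter on low levels only through the DMSO and sunitinib libraries. UBE2L6, the conjugating enzyme of ISG15, stood at 296, 359 and 367 FPKM in DMSO, at 222, 214 and 220.3 in the libraries titled MI-389 and at 325, 330.0 and 317 in those titled sunitinib. The fall was 1.56-fold (log2 difference −0.63 ± 0.08 (SE), adjusted p = 0.000108), and neither gene passed in the libraries titled sunitinib.

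HERC5 is the main human ISG15 ligase and HERC6 its closest relative, and they lie side by side on chromosome 4 in the same orientation. HERC5 stood at 45.6, 43.7 and 47.4 FPKM in DMSO, at 28.1, 26.1 and 29.4 in the libraries titled MI-389 and at 37.6, 36.4 and 36.5 in those titled sunitinib. The 3 groups did not overlap, with HERC5 1.64-fold below DMSO under the title MI-389 (log2 difference −0.69 ± 0.06 (SE), adjusted p = 8.93e-06) and 1.24-fold below under the title sunitinib (−0.30 ± 0.06 (SE), adjusted p = 0.00866). HERC6 stood at 17.1, 18.2 and 19.2 FPKM in DMSO, at 28.4, 25.5 and 27.3 in the libraries titled MI-389 and at 20.4, 20.2 and 21.7 in those titled sunitinib. It went the other way, 1.49-fold above DMSO under the title MI-389 (0.55 ± 0.06 (SE), adjusted p = 6.56e-05); under the title sunitinib every library lay above DMSO and the difference did not pass (0.18, adjusted p = 0.0666). USP18, the protease that removes ISG15 and restrains the receptor, had 53.6 ± 4.27 FPKM in DMSO, 48.8 ± 1.29 under the title MI-389 and 47.02 ± 0.804 under the title sunitinib, and did not pass (adjusted p = 0.0928 and 0.0635).

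The promoters of ISG15, HERC5 and HERC6 are shown because the first 2 fell and the third rose in the same libraries. UBE2L6 fell there too, and its 2 windows, which are not shown, hold neither spacing. The ISG15 window lies at chr1:1013247-1013496 on the plus strand, that of HERC5 at chr4:88456869-88457118 on the plus strand and that of HERC6 at chr4:88378602-88378851 on the plus strand, each with the 250 bases before the start. Capitals mark the ISRE core, which overlaps itself in ISG15 and HERC5; the HERC6 window holds neither spacing, which says only that these letters are not in it.
ISG15: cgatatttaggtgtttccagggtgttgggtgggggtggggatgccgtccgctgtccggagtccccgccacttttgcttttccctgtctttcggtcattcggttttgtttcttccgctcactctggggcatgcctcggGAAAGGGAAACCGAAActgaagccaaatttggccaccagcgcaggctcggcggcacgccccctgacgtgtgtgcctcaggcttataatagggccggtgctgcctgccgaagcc
HERC5: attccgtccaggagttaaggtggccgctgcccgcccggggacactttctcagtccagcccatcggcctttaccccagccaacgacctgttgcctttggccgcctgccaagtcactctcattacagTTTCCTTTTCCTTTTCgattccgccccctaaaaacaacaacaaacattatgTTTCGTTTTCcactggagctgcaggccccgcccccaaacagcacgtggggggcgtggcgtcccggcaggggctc
HERC6: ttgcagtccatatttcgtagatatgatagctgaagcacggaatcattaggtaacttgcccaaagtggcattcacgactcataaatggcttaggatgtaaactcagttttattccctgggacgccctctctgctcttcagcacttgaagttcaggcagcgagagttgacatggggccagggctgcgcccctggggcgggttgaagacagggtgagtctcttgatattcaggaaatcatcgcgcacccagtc

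**Figure D4:**
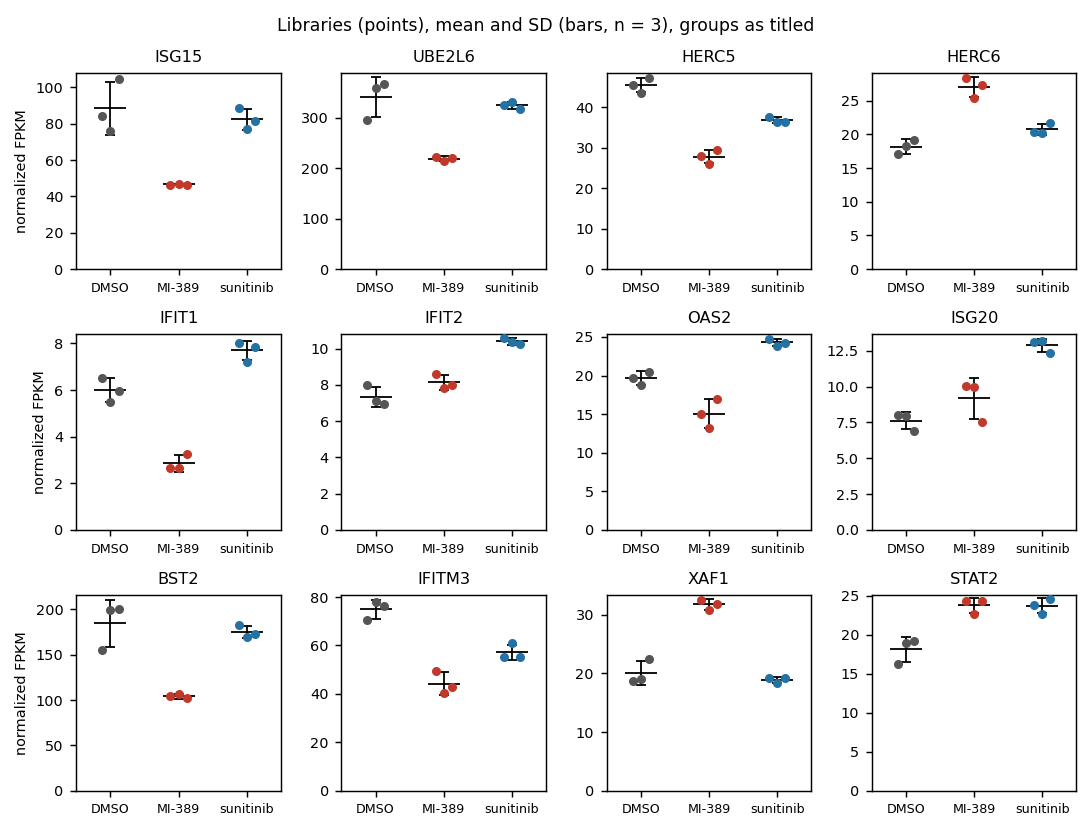
Normalized FPKM of 12 members in each library (points), with the mean and SD of the 3 libraries per group (bars), groups as titled, axes from 0. ISG15, UBE2L6, BST2 and IFIT1 are lowest in the libraries titled MI-389, HERC6 and XAF1 highest there, IFIT2 and ISG20 highest in those titled sunitinib, and STAT2 is above DMSO in both.

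All 4 membrane restriction factors were lower in the libraries titled MI-389. Over all tested genes 28.3% were lower, and 48.6% of those with a coding sequence under 600 bases, as all 4 have. BST2 (tetherin), which ties budding virus to the cell surface, stood at 155, 199 and 200.2 FPKM in DMSO, at 104, 107 and 102 in the libraries titled MI-389 and at 183, 169.7 and 172 in those titled sunitinib. That is 1.77-fold below DMSO without overlap (log2 difference −0.81 ± 0.09 (SE), adjusted p = 6.28e-05), and the sunitinib libraries lay inside the DMSO range. IFITM3, which blocks virus fusion in endosomes, stood at 70.5, 77.9 and 76.4 FPKM in DMSO, at 49.6, 40.4 and 42.7 in the libraries titled MI-389 and at 55.3, 60.9 and 55.2 in those titled sunitinib. It fell in both groups, 1.7-fold (−0.75 ± 0.08 (SE), adjusted p = 4.17e-05) and 1.31-fold (−0.39 ± 0.08 (SE), adjusted p = 0.0115); the latter call was lost without sunitinib replicate 3 (adjusted p = 0.0522).

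Its relatives on chromosome 11 followed under the title MI-389. IFITM1, which acts at the cell surface, stood at 275, 313 and 307 FPKM in DMSO, at 212, 200.3 and 203 in the libraries titled MI-389 and at 275, 265 and 256 in those titled sunitinib (log2 difference from DMSO −0.54, adjusted p = 6.11e-05). IFITM2 stood at 115, 149 and 139.9 FPKM in DMSO, at 74.9, 68.7 and 80.8 in the libraries titled MI-389 and at 106, 109 and 112 in those titled sunitinib (log2 difference −0.83, adjusted p = 6.13e-05). For both genes the libraries titled MI-389 lay below all others, and the sunitinib difference did not pass (adjusted p = 0.0841 and 0.0542). The IFITM genes are near-identical copies, and how the authors' counting divided shared reads is not given in the sources used here, so their separate values are uncertain. The 250 bases before the BST2 start, at chr19:17405631-17405880 on the minus strand, are shown with the ISRE core in capitals, where 2 matches share a block.
BST2: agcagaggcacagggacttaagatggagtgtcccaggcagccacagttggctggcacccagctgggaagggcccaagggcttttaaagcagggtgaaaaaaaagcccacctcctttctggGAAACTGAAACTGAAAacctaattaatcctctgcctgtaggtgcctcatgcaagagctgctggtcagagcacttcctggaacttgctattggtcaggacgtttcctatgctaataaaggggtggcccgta

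The IFI genes, named only for their induction, went in different directions. IFI44 stood at 74.4, 71.8 and 78.4 FPKM in DMSO, at 47.7, 47.99 and 51.2 in the libraries titled MI-389 and at 76.8, 74.3 and 73.7 in those titled sunitinib. The libraries titled MI-389 were 1.53-fold lower without overlap (log2 difference −0.60 ± 0.05 (SE), adjusted p = 1.24e-05), and those titled sunitinib lay inside the DMSO range (95% interval of the log2 difference −0.11 to 0.12). Its neighbour IFI44L was near the filter at 1.46 ± 0.348 FPKM in DMSO, 1.49 ± 0.336 under the title MI-389 and 1.59 ± 0.323 under the title sunitinib, and passed in no comparison. IFI35, a partner of the STAT-binding protein NMI, had 38.6 ± 4.702 FPKM in DMSO, 46.6 ± 1.65 under the title MI-389 and 46.6 ± 1.07 under the title sunitinib. It was higher in both groups (log2 differences 0.27, adjusted p = 0.0147, and 0.27, adjusted p = 0.0388), a call lost for the title MI-389 without MI-389 replicate 2 (adjusted p = 0.0512) and for the title sunitinib without DMSO replicate 2 or any sunitinib replicate (up to 0.125).

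IFI27, a mitochondrial membrane protein gene that is often strongly induced, was low throughout, at 1.75, 0.993 and 1.79 FPKM in DMSO, at 0.677, 0.215 and 0.654 in the libraries titled MI-389 and at 1.18, 0.85 and 1.66 in those titled sunitinib. It was lower under the title MI-389 (log2 difference −0.73, adjusted p = 0.0135), and these are among the lowest levels of the set. The mean of IFI27 over all 9 libraries was 1.09 FPKM, and that under the title MI-389 was 0.516. It thus passed the filter of 1 FPKM only through the other groups, and the filter favoured a lower value under the title MI-389. Counts of lower members given here include it. IFI6, a small membrane protein gene, had 126 ± 16.9 FPKM in DMSO, 109 ± 1.21 under the title MI-389 and 138 ± 4.54 under the title sunitinib, and did not pass against DMSO (adjusted p = 0.0846 and 0.291).

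Of the remaining members, XAF1 and the nuclear body genes were higher in the libraries titled MI-389. XAF1, an antagonist of the apoptosis inhibitor XIAP, stood at 18.7, 18.996 and 22.4 FPKM in DMSO, at 32.5, 30.8 and 31.9 in the libraries titled MI-389 and at 19.2, 18.3 and 19.2 in those titled sunitinib. The libraries titled MI-389 lay 1.58-fold above DMSO and above every sunitinib library (log2 difference 0.64 ± 0.07 (SE), adjusted p = 4.58e-05); a gene on the opposite strand, PRAL, overlaps its exons. Opposite-strand genes also overlap exons of ISG15, IFITM3, OAS1, MX1 and SP110, and unstranded reads cannot assign them. SP110 stood at 24.5, 22.4 and 27.5 FPKM in DMSO, at 37.2, 35.3 and 36.8 in the libraries titled MI-389 and at 27.1, 21.9 and 25.3 in those titled sunitinib (log2 difference 0.54, adjusted p = 0.000681), and SP100 had 34.6 ± 2.38 FPKM in DMSO, 42.8 ± 2.02 under the title MI-389 and 35.95 ± 1.27 under the title sunitinib (log2 difference 0.30, adjusted p = 0.00245). Both encode nuclear body proteins that bind chromatin and lie near each other on chromosome 2, and neither passed under the title sunitinib.

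PARP9, which works with the ubiquitin ligase DTX3L, had 32.7 ± 3.16 FPKM in DMSO, 28.3 ± 1.997 under the title MI-389 and 32.7 ± 0.891 under the title sunitinib. It was lower under the title MI-389 (log2 difference −0.20, adjusted p = 0.0462), a call lost without DMSO replicate 1 or 3 or any MI-389 replicate (up to adjusted p = 0.162), and DTX3L lies on the opposite strand over its exons. PARP14, a mono-ADP-ribosyltransferase, had 36.7 ± 2.86 FPKM in DMSO, 32.99 ± 2.74 under the title MI-389 and 34.2 ± 1.13 under the title sunitinib, with no call. TRIM22, an antiviral ligase, had 43.8 ± 2.98 FPKM in DMSO, 34.5 ± 0.997 under the title MI-389 and 44.8 ± 2.03 under the title sunitinib, and was lower under the title MI-389 (log2 difference −0.33, adjusted p = 0.00129). TRIM21, a ligase that binds antibody-coated virus in the cytosol, had 36.6 ± 3.004 FPKM in DMSO, 39.9 ± 1.45 under the title MI-389 and 38.7 ± 2.495 under the title sunitinib, with no call.

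Direct comparison of the treated groups separated more members than either comparison with DMSO. In the libraries titled MI-389, 8 members were higher and 19 lower than in those titled sunitinib, 71.1% of the 38, where 56.3% of all tested genes passed (36% higher and 20.3% lower). The members' median log2 difference was −0.20 against 0.08 over all genes. Centring each library on its median moved the latter to −0.08, the members' split to 7 higher and 27 lower, and the share of higher calls over all genes from 64% to 40.3%. Calls over all genes then rose from 6927 to 8142. All 27 called members, 8 higher and 19 lower, had libraries that did not overlap, as had 69.4% of all tested genes (42.5% higher and 27% lower).

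On the log2(FPKM + 1) scale and by ratio of means, the largest of these differences was that of IFIT1, 2.7-fold lower under the title MI-389 (−1.18 ± 0.09 (SE), adjusted p = 6.94e-06), followed on the lower side by ISG15 (−0.81, adjusted p = 0.000129), BST2 (−0.74, adjusted p = 0.000106) and OAS2 (−0.66, adjusted p = 9.46e-05). IFI44 (−0.60, adjusted p = 1.2e-05), UBE2L6 (−0.57, adjusted p = 0.000208), IFITM2 (−0.54, adjusted p = 0.000941), IFITM1 (−0.37, adjusted p = 0.000608), IFITM3 (−0.37, adjusted p = 0.00336), HERC5 (−0.39, adjusted p = 0.000268) and TRIM22 (−0.37, adjusted p = 0.000723) were also lower. Of the members with no call against DMSO under the title MI-389, 5 were lower than under the title sunitinib. These were ISG20 (−0.46, adjusted p = 0.00406), IRF9 (−0.34, adjusted p = 0.00651), IFI6 (−0.33, adjusted p = 0.00886), IFIT2 (−0.32, adjusted p = 0.00277) and MX2 (−0.26, adjusted p = 0.0163), the last lost without sunitinib replicate 1 or MI-389 replicate 2 (up to 0.0642).

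IFI27 (−0.56, adjusted p = 0.0431), IFIT3 (−0.22, adjusted p = 0.0279) and PARP9 (−0.21, adjusted p = 0.0413) were lower as well, and these calls were not steady. That of IFI27 was lost without sunitinib replicate 1 or 3 or MI-389 replicate 2 or 3 (up to 0.137), that of IFIT3 without sunitinib replicate 1 or 2 or MI-389 replicate 2 (up to 0.108), and that of PARP9 without any 1 of the 6 treated libraries (up to 0.146). On the higher side stood XAF1 (0.72, adjusted p = 2.3e-05), SP110 (0.54, adjusted p = 0.000656), DDX58 (0.39, adjusted p = 0.000319), IRF7 (0.39, adjusted p = 0.00484), HERC6 (0.36, adjusted p = 0.000838), DDX60 (0.33, adjusted p = 0.00139) and SP100 (0.24, adjusted p = 0.00776). The DDX60 call was lost under quantile normalization (adjusted p = 0.0633). IRF1 was higher by 0.18 (adjusted p = 0.0443), and this call was lost in 11 of 17 alternatives, among them the omission of any 1 of the 6 treated libraries and median centring (adjusted p = 0.787). STAT2 and IFI35, higher than DMSO in both groups, did not differ between them beyond the spread, with 95% intervals of −0.15 to 0.16 and −0.18 to 0.17 on the log2 scale.

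Calls within the set differed with the length of the coding sequence. Of the 9 members with a coding sequence under 600 bases (longest in GENCODE 29), 7 were lower and none higher in the libraries titled MI-389. Of the 16 from 600 to under 2000 bases 3 were higher and 5 lower, and of the 13 of at least 2000 bases 6 were higher and 3 lower. All tested genes had the same order: 14.9% higher and 48.6% lower under 600 bases, 29.2% and 29.9% in the middle, and 36.9% and 20.5% at 2000 bases or more. Across the 38 members Spearman's rho between coding length and log2 difference was 0.405, against 0.213 across the 10567 tested genes with a coding length, 85.9% of the total. With the mean level it was −0.347 across members and −0.209 across all genes. Genes of a library share its depth and normalization, so these values describe the libraries and carry no test. IFIT1, with 1434 coding bases, and HERC5, with 3072, were lower and lie outside the short class. The part of length and level in the members' calls was not tested.

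**Figure D5:**
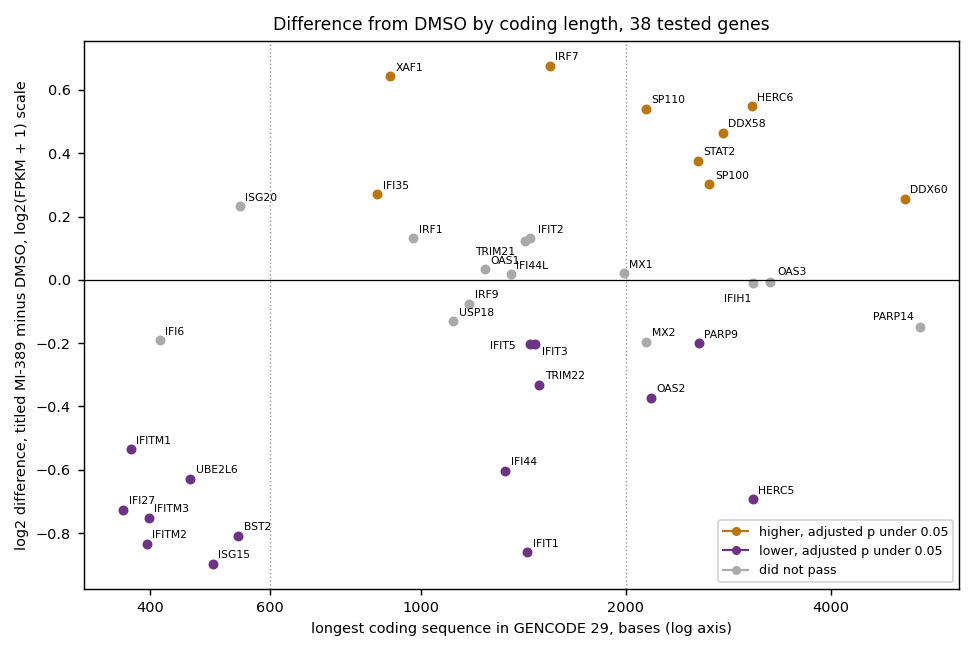
Log2 difference from DMSO under the title MI-389 (log2(FPKM + 1) scale) of the 38 tested members against their longest coding sequence in GENCODE 29 (log axis), coloured by call; dotted lines mark 600 and 2000 bases. The 9 genes left of 600 bases include 7 lower and no higher ones, and 6 of the 13 right of 2000 bases are higher.

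Other genes of the pathway were taken from lists, whose counts are to be read against all tested genes: 28.5% were higher and 28.3% lower under the title MI-389, and 2.37% and 16.9% under the title sunitinib. Of 14 tested genes for nucleic acid sensing upstream of interferon, 4 were higher and 4 lower in the libraries titled MI-389, and 1 was lower in those titled sunitinib. TMEM173, which encodes STING, rose 1.71-fold to 13.6 ± 0.761 from 7.96 ± 0.663 FPKM under the title MI-389 (adjusted p = 0.000161) and had 7.11 ± 0.928 under the title sunitinib. The adaptor gene TRAF6 rose to 11.4 ± 0.548 from 6.604 ± 0.512 FPKM (adjusted p = 3.77e-05), as did the DNA receptor gene TLR9, to 9.199 ± 0.743 from 5.26 ± 0.629 (adjusted p = 0.000111). TRAF3 fell to 13.4 ± 0.897 from 21.8 ± 1.61 FPKM (adjusted p = 4.68e-05) and also to 16.9 ± 0.799 under the title sunitinib (adjusted p = 0.0109, or 0.0508 without sunitinib replicate 2). TRIM25, the ligase that activates RIG-I, fell to 35.2 ± 1.74 from 56.1 ± 5.93 (adjusted p = 7.14e-05). The signalling factor IRF3 had 65.7 ± 9.96 FPKM in DMSO, 71.04 ± 3.66 under the title MI-389 and 70.5 ± 2.11 under the title sunitinib, and the adaptor MAVS 29.8 ± 2.96 FPKM in DMSO, 28.9 ± 1.56 under the title MI-389 and 29.6 ± 0.778 under the title sunitinib, with no call. MB21D1, which encodes the DNA sensor cGAS, had 0.222 ± 0.0953 FPKM in DMSO, 0.424 ± 0.12 under the title MI-389 and 0.292 ± 0.0825 under the title sunitinib, under the filter.

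Among 18 tested genes that restrain interferon signalling, 3 were higher and 8 lower under the title MI-389, and 4 were lower under the title sunitinib. The 18 include SOCS3, at 1.68 ± 0.392 FPKM in DMSO, 0.723 ± 0.162 under the title MI-389 and 1.64 ± 0.415 under the title sunitinib. With a mean of 1.35 FPKM over all libraries, SOCS3 passed the filter only through DMSO and sunitinib. For this gene the filter thus favoured a lower value under the title MI-389. TREX1, the nuclease that removes cytosolic DNA, fell 1.81-fold to 10.5 ± 0.625 FPKM (adjusted p = 9.91e-06) and 1.25-fold to 15.2 ± 0.748 (adjusted p = 0.0138, lost without sunitinib replicate 2 or 3, up to 0.0627), from 18.95 ± 1.08 in DMSO. RNASEH2A, a subunit of RNase H2, fell to 113 ± 3.698 and 130.4 ± 1.95 from 170.2 ± 13.6 FPKM (adjusted p = 4.24e-05 and 0.00525). IRF2, which competes with IRF1 for its element, fell to 20.2 ± 0.731 from 35.9 ± 3.898 FPKM under the title MI-389 (adjusted p = 2.11e-05), and NLRX1 rose to 16.3 ± 1.77 from 8.92 ± 0.66 (adjusted p = 7.96e-05). The phosphatase gene PTPN6 and the STAT inhibitor gene PIAS1 were lower under the title sunitinib, at 25.02 ± 2.36 against 38.99 ± 4.02 FPKM and 29.5 ± 0.679 against 36.6 ± 2.003 (adjusted p = 0.00301 and 0.00785).

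Of 38 other tested interferon-induced genes, 10 were higher and 13 lower under the title MI-389, and 1 higher and 8 lower under the title sunitinib. CMPK2, a mitochondrial nucleotide kinase gene next to viperin, fell 2.23-fold to 16.9 ± 0.346 from 37.8 ± 3.85 FPKM (adjusted p = 2.26e-06), and to 26.7 ± 1.09 under the title sunitinib (adjusted p = 0.00351). APOL6 rose 2.03-fold to 39.5 ± 1.36 from 19.4 ± 0.914 (adjusted p = 1.22e-06), and TRIM38 to 20.6 ± 0.568 from 10.9 ± 0.762 FPKM (adjusted p = 5.01e-06). LGALS9, which encodes galectin-9, fell to 68.4 ± 1.98 from 127 ± 18.7 (adjusted p = 4.44e-05). Under the title sunitinib RTP4 rose to 45.3 ± 2.46 from 33.1 ± 0.997 FPKM (adjusted p = 0.00399), CD38, a NAD-cleaving surface enzyme gene, fell to 20.7 ± 1.44 from 28.3 ± 2.44 (adjusted p = 0.00553), and the RNA-activated kinase gene EIF2AK2 fell to 17.6 ± 0.48 from 23.99 ± 3.46 (adjusted p = 0.0114).

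Of 17 tested genes of MHC class I presentation, 2 were higher and 10 lower under the title MI-389 (all tested genes 28.5% and 28.3%), and 1 was lower under the title sunitinib (all tested genes 16.9%). TAP1 and TAP2, the peptide transporter, fell to 28.7 ± 0.521 from 46.3 ± 3.26 FPKM and to 32.5 ± 0.693 from 46.98 ± 5.39 (adjusted p = 1.11e-05 and 0.000423). The peptidase gene ERAP2 fell to 82.04 ± 3.19 from 109 ± 7.85 FPKM (adjusted p = 0.000451), and PSME2, a proteasome activator gene, to 741 ± 9.09 from 1018 ± 106 (adjusted p = 0.00062). Under the title sunitinib HLA-G had 9.54 ± 0.642 against 13.04 ± 2.58 FPKM (adjusted p = 0.037), a call lost without DMSO replicate 2, without any sunitinib replicate and under the other scalings (up to 0.124). Of 7 tested genes induced mainly by interferon gamma, 2 were higher and 3 lower: GBP1, a guanylate-binding GTPase gene, rose to 79.7 ± 2.03 from 54.8 ± 2.89 FPKM under the title MI-389 and to 68.6 ± 2.22 under the title sunitinib (adjusted p = 2.95e-05 and 0.00539). IRF8 rose 3.06-fold to 6.64 ± 0.282 from 2.17 ± 0.532 FPKM (adjusted p = 0.000206), and IFI30, a lysosomal thiol reductase gene, fell to 9.24 ± 1.09 from 15.98 ± 3.24 (adjusted p = 0.00191). GBP3 also fell, to 15.5 ± 0.248 from 18.8 ± 1.17 (adjusted p = 0.0053). Of the 14 T-lineage markers 3 were higher and 6 lower under the title MI-389 and 3 lower under the title sunitinib. These are 64.3% and 21.4%, near the 56.7% and 19.3% of all tested genes, and their part in the results was not tested.

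Between the treated groups the same lists gave calls as follows, with log2 differences of the title MI-389 from the title sunitinib. These counts are to be read against all tested genes, of which 36% were higher and 20.3% lower in this comparison. Of the 8 receptor and kinase genes 4 were higher and 2 lower, led by IFNGR2 (−0.65, adjusted p = 1.71e-05), IFNGR1 (0.46, adjusted p = 0.000185), IL10RB (−0.28, adjusted p = 0.0026) and JAK1 (0.24, adjusted p = 0.00528). Sensing genes had 4 higher and 4 lower of 14, led by TMEM173 (0.85, adjusted p = 4.78e-05), TRAF6 (0.66, adjusted p = 5.32e-05), TRIM25 (−0.44, adjusted p = 0.000781) and MYD88 (−0.38, adjusted p = 0.00135). Restraint genes had 8 higher and 5 lower of 18, led by IRF2 (−0.79, adjusted p = 2.07e-05), NLRX1 (0.72, adjusted p = 0.000159), TREX1 (−0.49, adjusted p = 0.000175) and PTPN6 (0.63, adjusted p = 0.000185). Other interferon-induced genes had 14 higher and 11 lower of 38, led by APOL6 (0.96, adjusted p = 1.59e-06), CD38 (1.03, adjusted p = 3.59e-06), TRIM38 (0.84, adjusted p = 5.7e-06) and RTP4 (−0.59, adjusted p = 5.98e-05). MHC class I genes had 3 higher and 9 lower of 17, led by TAP1 (−0.69, adjusted p = 8.94e-06), HLA-E (0.51, adjusted p = 0.000203), ERAP2 (−0.44, adjusted p = 0.000239) and PSME1 (−0.40, adjusted p = 0.000486). Genes induced mainly by interferon gamma had 3 of each direction among 7, led by IRF8 (1.45, adjusted p = 9.14e-05), GBP3 (−0.39, adjusted p = 0.000557), IFI30 (−0.65, adjusted p = 0.00344) and GBP1 (0.21, adjusted p = 0.00706). The JAK1 call was lost under median centring, quantile normalization and cyclic loess (up to 0.29), and that of GBP1 under median centring (0.164).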

How the data were processed

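Gene levels of 9 MOLT4 libraries were deposited as normalized FPKM values, libraries in columns and gene symbols in 23713 rows, of which 92 are ERCC spike-in RNAs. HISAT, Cufflinks 2.0.0 and hg19 were used, per the submitters' processing notes; how libraries were normalized, and with which annotation, was not given in the sources used here. Spike-in RNA was added by cell number and libraries were made with the SMARTer v4 kit, per the labels' protocols; the kit does not mark strand. FPKM hides read totals, so depth is known only relative to DMSO. Spike-in rows were level across groups (median log2 difference −0.03 and −0.01 from DMSO, 16 RNAs).

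The 12301 genes whose mean reached 1 FPKM entered limma 3.58.1 (R 4.3.3) as log2(FPKM + 1), all 9 libraries and 3 groups in 1 model with a variance trend, two-sided, Benjamini-Hochberg adjusted over all of them and called at an adjusted p under 0.05. Fold changes are ratios of mean FPKM; log2 differences understate changes of low genes. On data simulated for the titled MI-389 and DMSO groups over 12301 genes, 94 of 100 changes of 1 and 69 of 100 of −0.5 on the log2 scale were recovered, with 8 false of 171 calls. No other genes were changed there, while 56.7% of tested genes passed in the real comparison. Recovery and error may thus differ in the real data, and smaller changes were not simulated. No 2 libraries were identical.

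Groups follow the titles. Named genes are the 39 members, up to 4 called genes with the smallest adjusted p from each pathway list and comparison, and a few signalling genes; 1 gene is not reported here. The members and lists were chosen with earlier results of these data known. GENCODE 29 gave names, neighbours, overlaps and coding lengths; RefSeq gave promoters. Alternatives were other pseudocounts, filters, scalings and spread models, a replicate block, the source-field names and each library left out. Figures were drawn with matplotlib 3.10.9.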

Additional observations from a re-analysis of the deposited data

How the results depend on the processing

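No called member difference changed direction under any alternative that kept the titled groups. Calls held in every one for 19 of 24 members (title MI-389 against DMSO), 4 of 8 (title sunitinib against DMSO) and 21 of 27 (between treated groups). Leaving out single libraries gave 20 to 26, 4 to 15 and 22 to 25 called members, and 55 to 65, 8 to 35 and 62 to 64 called pathway genes (63, 18 and 70 with all libraries); the highest counts for the title sunitinib, 15 and 35, came without DMSO replicate 1, and its lowest, 4 and 8, without sunitinib replicates 3 and 2. That comparison also had 5 called members with no filter, 16 with median centring, 18 with quantile normalization and 19 with cyclic loess. It had 31, 40 and 41 pathway genes with these scalings and 11 with the 6 compared libraries alone. Its calls over all genes were 1423 with no filter, 3136, 3677 and 3814 with these scalings and 1225 with the 6 libraries, against 2370. Leaving out single libraries of the compared groups gave 6007 to 7250, 929 to 4244 and 5950 to 6276 calls over all genes in the 3 comparisons. With all libraries these were 6979, 2370 and 6927. The cause was not tested. With the compound names of the source field the 2 comparisons with DMSO exchange their counts, 8 for MI-389 and 24 for sunitinib. Differences between the treated groups then change sign. Single genes were not recomputed there, since the naming only exchanges the groups.

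With the replicate number as a block, 24 members (10 higher, 14 lower), 7 (5 and 2) and 27 (7 and 20) were called, and 60, 14 and 68 pathway genes. Over all genes the block gave 6816, 1941 and 6740 calls. Same-numbered libraries deviated together with r of −0.04 to 0.11, over 0.1 in 1 of 9 pairs. Differently numbered libraries had r of −0.216 to 0.134. No strong shared deviation was seen, and with 3 libraries per group these values cannot tell whether same-numbered libraries were prepared together.

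Low levels limit OASL and the interferon genes, which were under the filter, and the log2 differences of IFI27 and IFI44L, which the pseudocount shrinks: that of IFI27 under the title MI-389 ranged from −1.46 to −0.24 over the alternatives.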
